A study of Saccharomyces cerevisiae with 32 samples.

Results

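The question here was what wild-type yeast did between the first minutes after a sugar upshift and the hours that followed: which early changes in RNA level were undone, and which genes started late. The 4 wild-type libraries taken at 60 and 120 min after glucose or fructose was added, called late here, were compared with the 4 wild-type libraries taken at 5 and 10 min, called early. These are 8 of the 32 libraries of the series. The late and early groups are Saccharomyces cerevisiae of the wild-type strain DBY12000, grown in log phase on 2% galactose in yeast nitrogen base and then given glucose or fructose to 2%. The 2 wild-type galactose libraries, taken at 0 min of each course from the same strain with no sugar added, served as the baseline. The same times in the tps1 strain DBY12383, which lacks trehalose-6-phosphate synthase and was grown and treated in the same way, were used only in the filter on low values and where the strains were compared. Every library was poly-A RNA, and there was 1 library for each strain, sugar and time.

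Galactose-grown yeast makes the transporter and enzymes of galactose use together with many genes of respiration, storage carbohydrate and other carbon sources. Glucose and fructose are taken up by the Hxt family of hexose transporters. They activate the protein kinase A pathway, which favours genes of ribosome assembly and opposes stress and storage genes. They also act through the repressor Mig1, which keeps genes for other carbon sources low, and through the Snf3 and Rgt2 sensors, which relieve repression of HXT genes by Rgt1 with Mth1 and Std1.

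Values are FPKM as deposited, a unit defined per kilobase of gene and per fragments mapped. How the libraries were scaled to each other is not given. Differences are on the log2(FPKM + 1) scale, which understates the change of genes near 1 FPKM. A call needed a difference of at least 2-fold with an adjusted p under 0.05 (limma, Benjamini-Hochberg over all 6203 genes tested). The 5 and 10 min samples of a course, and its 60 and 120 min samples, are serial samples with no repeat of the course, so the p-values measure the spread between these samples and not that between cultures. Estimated depth of the 8 libraries was 3.61 to 7.62 M fragments (M, mega), with 1 fragment over 1 kb worth 0.102 to 0.224 FPKM, which limits statements on genes of a few FPKM. TPS1 had 43.2 to 325.7 FPKM in the 16 wild-type libraries, against 0 to 1.18 FPKM in the 16 tps1 libraries. Genes that mark a cells summed to 2076 to 5665 FPKM in the late libraries and 1850 to 7418 FPKM in the early ones, while genes that mark alpha cells summed to 45.1 to 53.2 FPKM late and 47.3 to 69.9 FPKM early. In bulk RNA of this kind, fewer cells that hold a transcript and less of it per cell cannot be told apart.

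Late libraries differed from early ones in 214 genes, 3.45% of those tested: 112 were higher late (1.81%) and 102 were lower late (1.64%). Without the 2-fold minimum 1239 genes had an adjusted p under 0.05. Early against galactose, 331 genes were higher (5.34%) and 283 were lower (4.56%). Late against galactose, 39 genes were higher (0.629%) and 89 were lower (1.43%). This total of 128 came to 23 without the fructose-course galactose library and to 22 without the glucose-course one, so the kept and late starting classes below, which need such a call, rest on both. When each library was scaled to the same FPKM sum, the early difference from galactose split into 221 higher and 415 lower, and the late one into 25 higher and 164 lower, with the median of all genes at -0.19 and -0.18 log2. The late against early split was 110 to 97 under that scaling, with the median gene at 0.0014. Of the 214 genes that differed between late and early, 174 had also differed between early and galactose, and 173 of these had moved the opposite way. The comparisons share the early libraries, so this count describes the classes below and is not a test. The late and early libraries did not overlap in 200 of the 214 genes. Over all genes tested, the late libraries all lay above the early ones in 604 genes (9.74%) and all below them in 781 (12.6%).

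Each early change was classed by what stood at 60 and 120 min. Of the 331 early rises, 80 were undone, meaning that they were called lower late than early and lay within 2-fold of galactose late; 6 were partly undone, 15 were kept, and 229 were in none of these states by the calls. Of the 283 early falls, 57 were undone, 30 were partly undone, 50 were kept and 146 were left uncalled. Late starting genes were within 2-fold of galactose at the early mean and were then called both against early and against galactose. They numbered 11 late starting rises and 6 late starting falls. A single gene, ARI1, rose early and was called higher again late. A further 23 genes differed between late and early without meeting any class. GRE2 and YRO2, undone rises, lay just inside the limit at 0.97 log2 above galactose late, and DLD3, a partly undone rise, lay just outside it at 1.10.

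**Figure D1:**
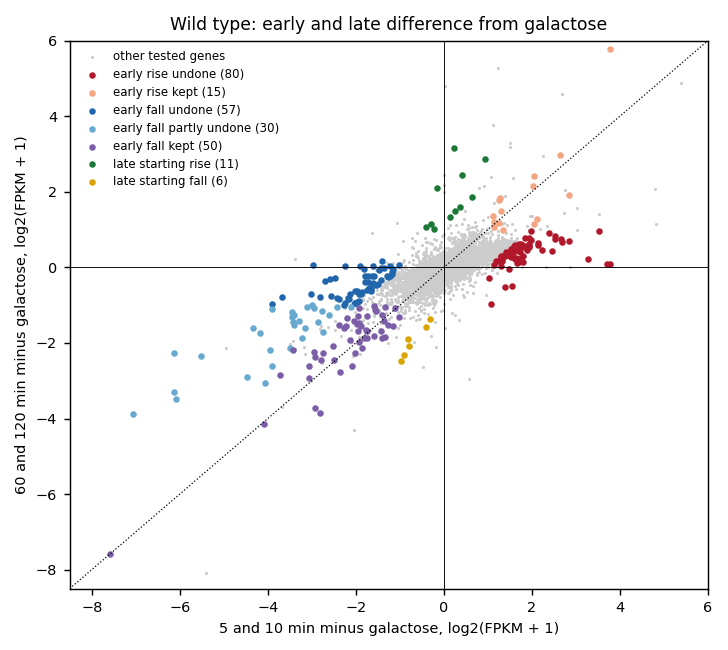
Difference from galactose in wild-type libraries, on the log2(FPKM + 1) scale, at 5 and 10 min (horizontal axis) and at 60 and 120 min (vertical axis); each point is 1 tested gene, coloured by class, and the dotted line marks equal differences. The 80 undone rises and 57 undone falls lie within 1 log2 of 0 on the vertical axis. The 11 late starting rises lie within 1 log2 of 0 on the horizontal one, with a median of 0.23.

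Genes of ribosome assembly made up 15 of the 80 early rises that were undone. Of 73 tested ribosome biogenesis genes, which process ribosomal RNA and assemble ribosomal subunits in the nucleolus, 15 were called lower late than early and none higher. All 15 were undone rises. Over all tested genes 1.64% were called lower. In 51 of the 73 genes the late libraries lay below all the early ones, against 12.6% of all tested genes. Early against galactose, 60 of the 73 had been called higher (44 under equal FPKM sums) and none lower. Over all tested genes 5.34% were higher. Only 15 of these 60 early rises were called undone. Late against galactose, no gene of the list was called in either direction. The median gene of the list differed by -0.78 log2 between late and early, beside -0.00021 for all genes tested.

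DBP2 encodes a DEAD-box RNA helicase of ribosomal RNA processing and messenger RNA turnover (chromosome XIV, 413639 to 416281, plus strand). It had 177 and 87.8 FPKM at 60 and 120 min of glucose and 236 and 119 FPKM at 60 and 120 min of fructose, against 757 and 746 FPKM at 5 and 10 min of glucose and 501 and 605 FPKM at 5 and 10 min of fructose. The 2 galactose libraries had 84.0 and 92.7 FPKM, so the 120 min libraries stood close to galactose and the 60 min libraries stood higher. The late minus early difference was -2.15 ± 0.28 log2 (SE; adjusted p = 0.0017). NSR1, the yeast nucleolin (chromosome VII, 806412 to 807656, minus strand), had 276 and 159.6 FPKM at 60 and 120 min of glucose and 342 and 224 FPKM at 60 and 120 min of fructose, against 809 and 610.3 FPKM at 5 and 10 min of glucose and 603 and 540.0 FPKM at 5 and 10 min of fructose. Its galactose levels were 158 and 173 FPKM, and its difference was -1.39 ± 0.22 log2 (adjusted p = 0.0038). In both genes every late library lay below every early one. Other members with the same course included RRP12, UTP5, DBP7, SSF1, NOG1, NMD3 and NOC4, with differences of -1.19 to -1.0 log2. RRN11, a subunit of the core factor that recruits RNA polymerase I, was the 1 called gene of 25 for RNA polymerases I and III. It had 5.04 to 8.93 FPKM late, against 12.9 to 29.5 FPKM early. TOD6, chosen here after its values were seen, encodes a repressor of ribosome biogenesis genes and belonged to the undone rises as well: it had 12.1 to 28.4 FPKM late, against 57.8 to 88.2 FPKM early, and 9.74 and 11.6 FPKM in galactose.

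The structural genes of the ribosome did not share this course. None of the 137 cytosolic ribosomal protein genes was called between late and early, and their median difference was 0.14 log2. At the median they stood 0.59 log2 above galactose late and 0.47 above it early. RPL3, which encodes a large-subunit protein, had 3654 to 5120 FPKM late, against 3612 to 4360 FPKM early and 2764 to 2933 FPKM in galactose, and its late and early libraries overlapped. The 74 mitochondrial ribosomal protein genes and the 35 tested translation factor genes had no called gene between late and early either. Over all tested genes 3.45% were called. The ribosome biogenesis list stood 0.49 log2 above galactose late and 1.27 above it early at the median.

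The largest undone rises lay outside that list. BSC1 (chromosome IV, 384601 to 385587, minus strand) and PRM7 (chromosome IV, 381985 to 384081, minus strand), a pheromone-regulated membrane protein gene, stood near galactose late after an early peak. BSC1 had 2.01 and 1.28 FPKM at 60 and 120 min of glucose and 1.43 and 2.03 FPKM at 60 and 120 min of fructose, against 63.3 and 37.2 FPKM at 5 and 10 min of glucose and 26.7 and 19.4 FPKM at 5 and 10 min of fructose, with 1.18 and 1.84 FPKM in galactose. PRM7 had 3.22 to 4.8 FPKM late, against 28.9 to 118 FPKM early. Their late minus early differences were -3.69 ± 0.31 log2 (adjusted p = 0.0003) and -3.61 ± 0.35 log2 (adjusted p = 0.00043). YOR338W, for which no role is given here, had 1.61 to 1.89 FPKM late, against 10.9 to 52.6 FPKM early. YRO2, a membrane protein gene related to the heat shock gene HSP30, had 74.2 and 97.1 FPKM at 60 and 120 min of glucose and 149 and 119 FPKM at 60 and 120 min of fructose, against 384 and 572 FPKM at 5 and 10 min of glucose and 677 and 1100 FPKM at 5 and 10 min of fructose. Its galactose levels were 54.0 and 53.7 FPKM, its difference was -2.57 ± 0.31 log2 (adjusted p = 0.0013), and its late libraries stayed above both galactose libraries. GNP1, a glutamine permease gene, had 39.6 to 72.5 FPKM late, against 133 to 291 FPKM early, and STR3, of methionine synthesis, had 36.1 to 46.7 FPKM late, against 54.5 to 206 FPKM early. The STR3 call (adjusted p = 0.046) was lost when either galactose library, any late library or 1 of 2 early libraries was left out (adjusted p of 0.07 to 0.11).

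The 6 rises that were only partly undone included TPO2 and FMP48, which stood 4.81 and 4.82 log2 above galactose early. TPO2, a polyamine exporter gene, had 51.8 and 63.3 FPKM at 60 and 120 min of glucose and 70.0 and 72.4 FPKM at 60 and 120 min of fructose, against 464 and 344 FPKM at 5 and 10 min of glucose and 521 and 411 FPKM at 5 and 10 min of fructose, with 14.6 and 14.1 FPKM in galactose. Its late libraries lay below all early ones by -2.73 ± 0.14 log2 (adjusted p = 6.6e-05) and remained 2.08 log2 above galactose (adjusted p = 0.00064). FMP48, a putative kinase of mitochondria, had 13.9 to 18.8 FPKM late, against 130.2 to 354 FPKM early, and 7.05 and 6.30 FPKM in galactose. GPP1, a glycerol phosphatase gene chosen after its values were seen, had 1280 to 1820 FPKM late, against 3373 to 4931 FPKM early. DLD3 had 437 to 541 FPKM late, against 884 to 1647 FPKM early. YDR222W and YOR146W completed this class.

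**Figure D2:**
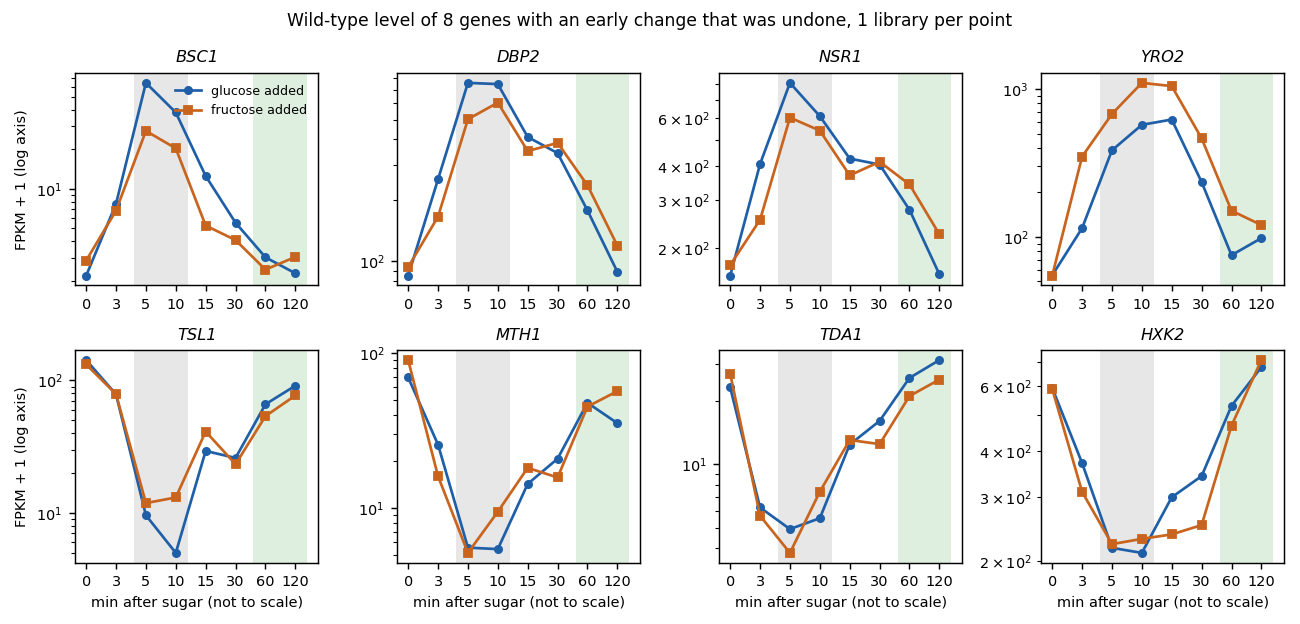
Level of 8 genes in wild-type libraries over time, as FPKM + 1 on a log axis, with 1 library per point; grey bands mark the early times and green bands the late ones. The top row holds undone rises, with DBP2 at 177 and 87.8 FPKM at 60 and 120 min of glucose, against 757 and 746 FPKM at 5 and 10 min, and the bottom row holds undone falls.

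Early falls that were undone included genes of storage sugars and of glucose signalling. Of 19 trehalose and glycogen genes, 7 were called higher late than early and none lower, with a median difference of 0.88 log2. Of the same 19 genes, 14 had been called lower early than in galactose, and 5 were called lower late than in galactose. Over all tested genes 1.81% were higher late than early. The shares lower than in galactose were 4.56% early and 1.43% late. The 7 genes covered trehalose and glycogen: TPS1, TPS2 and TSL1 of the trehalose synthase complex and the trehalase gene ATH1 were undone falls, and the glycogen genes GLG1, GLC3 and GAC1 were partly undone. Of 9 genes for sucrose, maltose and isomaltose use, 4 were called higher late and none lower.

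TSL1, a regulatory subunit of the trehalose synthase complex (chromosome XIII, 70624 to 73920, plus strand), had 65.1 and 90.3 FPKM at 60 and 120 min of glucose and 52.8 and 76.0 FPKM at 60 and 120 min of fructose, against 8.57 and 3.97 FPKM at 5 and 10 min of glucose and 10.8 and 12 FPKM at 5 and 10 min of fructose. Galactose libraries had 142 and 131 FPKM, so the late libraries stood below galactose, and all 4 lay above all 4 early ones. Its late minus early difference was 2.93 ± 0.29 log2 (adjusted p = 0.00047). TPS1 itself, the synthase gene (chromosome II, 488905 to 490392, minus strand), had 204 and 264 FPKM at 60 and 120 min of glucose and 192 and 276 FPKM at 60 and 120 min of fructose, against 128 and 43.2 FPKM at 5 and 10 min of glucose and 145 and 85.4 FPKM at 5 and 10 min of fructose, with 326 and 279 FPKM in galactose. Its difference was 1.33 ± 0.34 log2 (adjusted p = 0.024). The glycogen branching enzyme gene GLC3, chosen after its values were seen, had 18.4 to 29.2 FPKM late, against 2.82 to 11.3 FPKM early, and GAC1, whose product targets a phosphatase to glycogen synthase, had 8.56 to 14.6 FPKM late, against 1.21 to 2.36 FPKM early. GPH1, glycogen phosphorylase, was an early fall that was kept: it had 12.1 to 23.9 FPKM late, against 9.25 to 37.3 FPKM early, and 79.6 and 68.8 FPKM in galactose.

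Other undone falls included single genes that act in the glucose response. They come from no one list: of the 17 hexose transport and sensing genes, 2 were undone falls. MTH1, a co-repressor of HXT genes (chromosome IV, 1014401 to 1015702, minus strand), had 46.6 and 34.2 FPKM at 60 and 120 min of glucose and 44.0 and 55.6 FPKM at 60 and 120 min of fructose, against 4.55 and 4.43 FPKM at 5 and 10 min of glucose and 4.14 and 8.46 FPKM at 5 and 10 min of fructose. Galactose libraries had 68.4 and 88.8 FPKM, and the difference was 2.88 ± 0.22 log2 (adjusted p = 0.00019). Its paralog STD1 was an early rise that was kept, with 14.9 to 27.2 FPKM late, against 11.9 to 21.6 FPKM early and 3.75 and 2.57 FPKM in galactose. MIG1, the glucose repressor gene, was chosen after its values were seen. It had 58.2 and 56.4 FPKM at 60 and 120 min of glucose and 48.4 and 50.1 FPKM at 60 and 120 min of fructose, against 14.3 and 16.3 FPKM at 5 and 10 min of glucose and 9.03 and 13.5 FPKM at 5 and 10 min of fructose, with 52.3 and 50.9 FPKM in galactose, a difference of 1.95 ± 0.16 log2 (adjusted p = 0.00025). TDA1, a protein kinase that phosphorylates Hxk2, had 20.1 to 30.3 FPKM late, against 2.80 to 6.42 FPKM early, and GIS1, a transcription factor of nutrient limitation, had 22.8 to 31.9 FPKM late, against 3.31 to 6.11 FPKM early. HXK2, the main glucose-phosphorylating hexokinase of fermenting cells, had 529.7 and 676 FPKM at 60 and 120 min of glucose and 468 and 707 FPKM at 60 and 120 min of fructose, against 217 and 210.0 FPKM at 5 and 10 min of glucose and 222 and 229 FPKM at 5 and 10 min of fructose. Its late level was close to that of galactose (593 and 589.8 FPKM), with a late minus galactose difference of -0.01 log2 and a late minus early difference of 1.41 ± 0.13 log2 (adjusted p = 0.00031).

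The deepest early falls were only partly undone. RGI1, a gene of energy metabolism under respiratory growth, had 26.6 and 26.0 FPKM at 60 and 120 min of glucose and 14.3 and 26.1 FPKM at 60 and 120 min of fructose, against 0 and 0.830 FPKM at 5 and 10 min of glucose and 1.04 and 0.753 FPKM at 5 and 10 min of fructose. Galactose libraries had 112 and 112 FPKM, so the late libraries stood well above early and well below galactose. Its late minus early difference was 3.88 ± 0.26 log2 (adjusted p = 0.00015), and its late minus galactose difference was -2.26 log2. TMA10 had 33.0 to 149 FPKM late, against 3.24 to 14.6 FPKM early, and 1123 and 1107 FPKM in galactose. HXK1, the second hexokinase gene, had 95.5 and 147 FPKM at 60 and 120 min of glucose and 61.6 and 316 FPKM at 60 and 120 min of fructose, against 41.7 and 4.57 FPKM at 5 and 10 min of glucose and 49.7 and 8.30 FPKM at 5 and 10 min of fructose, with 1295 and 1269 FPKM in galactose. GAL2, the galactose permease gene, had 686 to 1622 FPKM late, against 161 to 452 FPKM early, and 7979 and 6465 FPKM in galactose. SUC2, invertase, was undone, with 61.7 to 87.4 FPKM late, against 23.2 to 32 FPKM early and 128 and 116 FPKM in galactose. MAL11 had 12.2 to 18.4 FPKM late, against 1.93 to 4.32 FPKM early, and MAL31 had 19.4 to 32.6 FPKM late, against 4.51 to 7.04 FPKM early. The maltose genes have near-identical copies, between which reads may have been split, so their values are uncertain.

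The 50 early falls that were kept were called lower than galactose both early and late. Of 10 galactose regulon genes, 6 were called lower late than in galactose and 5 lower early than in galactose, and 2 were higher and 1 lower late than early. GAL1, galactokinase, had 1973 and 1548 FPKM at 60 and 120 min of glucose and 3078 and 3869 FPKM at 60 and 120 min of fructose, against 6161 and 2155 FPKM at 5 and 10 min of glucose and 6254 and 3320 FPKM at 5 and 10 min of fructose, with 10387 and 9338 FPKM in galactose. Its late and early libraries overlapped (adjusted p = 0.23), and the gene lies within an annotated non-coding RNA on the same strand. None of the 18 gluconeogenesis and glyoxylate genes was called between late and early. Nor was any of the 17 tricarboxylic acid cycle genes, although 9 in each list had fallen early. Over all tested genes 3.45% were called between late and early, and 4.56% had fallen early. Late against galactose, 3 of the gluconeogenesis and glyoxylate genes were called lower and 1 higher, with a list median of -0.47 log2 late and -0.95 early. Of the tricarboxylic acid cycle genes 5 were called lower late than in galactose, with a median of -1.06 log2 late and -1.24 early. PCK1, of gluconeogenesis, had 5.19 to 8.10 FPKM late, against 5.52 to 6.79 FPKM early and 7.10 and 5.11 FPKM in galactose, and ICL1, isocitrate lyase, had 33.5 to 37.9 FPKM late, against 26.7 to 34.7 FPKM early and 47.0 and 50.9 FPKM in galactose. Neither was called in any of the 3 comparisons. JEN1, a kept fall, is a lactate permease gene chosen after its values were seen. It had 6.92 to 15.1 FPKM late, against 7.79 to 40.5 FPKM early, with 154 and 138 FPKM in galactose. DSF1, another kept fall, had 0.172 to 0.881 FPKM late, against 0.170 to 1.08 FPKM early, with 21.8 and 29.5 FPKM in galactose. DSF1 has a close relative in the genome, so its reads may have been split as well.

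Stress genes were mixed. Of 39 general stress genes, 6 were called higher late than early and 3 lower, and 13 had been called lower early than in galactose. Over all tested genes the shares were 1.81%, 1.64% and 4.56%. HSP12, a membrane stress protein gene, had 973 to 1971 FPKM late, against 1002 to 2278 FPKM early. CTT1, catalase, had 53.2 to 73.2 FPKM late, against 13.4 to 83.7 FPKM early, and HSP26, a small heat shock protein gene, had 9.77 to 27.4 FPKM late, against 9.82 to 26.2 FPKM early. In all 3 the late and early libraries overlapped. The 3 lower ones were YGP1 and GPP2, both undone rises, and HSP30. No chaperone gene of 26, no histone gene of 10 and no gene of the 34 for G1 and S phase or the 29 for mitosis was called. The cyclin gene CLN2 had 70.7 to 80.5 FPKM late, against 85.4 to 101 FPKM early. The cyclin gene CLB2 had 39.4 to 58.7 FPKM late, against 33.3 to 53.6 FPKM early. The CLN2 difference of -0.31 ± 0.07 log2 had an adjusted p of 0.02 but was under 2-fold. No gene was called late against early among 32 tested for the respiratory chain, 51 for amino acid synthesis and 21 for purine synthesis. The same held for phosphate (20), ergosterol (25), proteasome (33) and cell wall (28). In the sulfur and methionine list 1 of 25 genes was lower, and in the iron list 1 of 23. Over all tested genes 3.45% were called late against early, so 0 or 1 call in lists of these sizes stands near that share.

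To show which upstream letters the undone genes share, the 500 bases before each start codon were searched for 10 short motifs on both strands, and the share of the class is given beside that of all 5712 windows. PAC (GATGAG) and RRPE (AAAATTTT) are known from ribosome biogenesis promoters, and Tod6 binds PAC. PAC letters were in 46 of 75 windows of undone rises (61.3%), against 27.8% of all windows, and RRPE letters in 36 of 75 (48.0%), against 12.8%. In the ribosome biogenesis list the counts were 70 and 59 of 73. Outside that list 31 of 60 windows of undone rises held PAC. STRE (CCCCT), bound by Msn2 and Msn4, was in 37 of 53 windows of undone falls (69.8%) and 20 of 27 of partly undone falls (74.1%), against 34.4%. The Mig1 core (CCCCNC) was in 28 of 53 (52.8%) and 17 of 27 (63.0%), against 23.2%. STRE and the Mig1 core can share letters, and 22 of the 53 windows of undone falls held both. A match of letters is a description and does not show binding. The sites below are from genes whose values are given above, read on the coding strand in genome build R64 (sacCer3), with the motif or its reverse complement in capitals.
DBP2 PAC letters, chrXIV:413475-413498, plus strand, 149 bases before the start codon: acgccgatgCTCATCgcagaaaat
DBP2 RRPE letters, chrXIV:413485-413510, plus strand, 137 bases before the start codon: tcatcgcagAAAATTTTtccttcagt
NSR1 PAC letters, chrVII:807829-807852, minus strand, 181 bases before the start codon: caagggcagCTCATCgcaagaacg
NSR1 RRPE letters, chrVII:807812-807837, minus strand, 164 bases before the start codon: gcaagaacgAAAATTTTcaatccaat
TOD6 PAC letters, chrII:117330-117353, plus strand, 244 bases before the start codon: gaaaattgaGATGAGatgcgatgc
TSL1 STRE letters, chrXIII:70289-70311, plus strand, 321 bases before the start codon: gtcaccccgCCCCTgcattttga
GIS1 STRE letters, chrIV:636804-636826, plus strand, 321 bases before the start codon: aaaacctccCCCCTcctcctccc
MTH1 STRE letters, chrIV:1016008-1016030, minus strand, 314 bases before the start codon: gccattctaCCCCTtattcaagt
MTH1 Mig1 core letters, chrIV:1016117-1016140, minus strand, 423 bases before the start codon: ggatgactgCCCCACacatttcct
MIG1 Mig1 core letters, chrVII:433376-433399, minus strand, 322 bases before the start codon: ggactgccaCCCCACtccgggaaa

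In DBP2 and in NSR1 the PAC and RRPE letters lie close together, with PAC farther from the start codon. The MCB, SCB, Gcn4 core and Gal4 motifs were in 1.3% to 12% of windows of undone rises and 1.9% to 13.2% of undone falls, against 3.0% to 12.9% of all windows.

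The 11 genes that rose late included 3 of hexose transport and sensing and 4 of nitrogen use. Of 17 tested hexose transport and sensing genes, 9 were called higher late than early and none lower, with a median difference of 1.23 log2. Over all tested genes 1.81% were called higher and 1.64% lower. Of 25 nitrogen genes, 5 were called higher and 1 lower, and 4 of the 11 late starting rises came from this list: GAP1, DAL80, PUT1 and DUR1,2. The other 7 were HXT2, HXT4, MIG3, AHP1, PHM7, YHR210C and YKR033C. The late starting classes need a call against the 2 galactose libraries. Without the glucose-course or the fructose-course galactose library 2 late starting rises were counted in place of 11, and 7 without the 5 min glucose library.

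HXT2, a high-affinity transporter gene (chromosome XIII, 288079 to 289704, plus strand), had 121 and 65.2 FPKM at 60 and 120 min of glucose and 94.9 and 84.1 FPKM at 60 and 120 min of fructose, against 10.6 and 16.3 FPKM at 5 and 10 min of glucose and 6.26 and 12 FPKM at 5 and 10 min of fructose. Galactose libraries had 11.1 and 7.25 FPKM, at the level of the early libraries, and all late libraries stood above both. Its late minus early difference was 2.94 ± 0.28 log2 (adjusted p = 0.0004). HXT4 had 38.6 and 23.4 FPKM at 60 and 120 min of glucose and 37.8 and 96.7 FPKM at 60 and 120 min of fructose, against 8.17 and 11.8 FPKM at 5 and 10 min of glucose and 7.69 and 15.3 FPKM at 5 and 10 min of fructose, with 4.49 and 5.46 FPKM in galactose. All its early libraries already stood above both galactose libraries, within the 2-fold limit at the early mean. Its late libraries spread widely, and the highest was 120 min of fructose. HXT3, a low-affinity transporter gene (chromosome IV, 1162957 to 1164660, minus strand), had 472 and 533 FPKM at 60 and 120 min of glucose and 269.6 and 513 FPKM at 60 and 120 min of fructose, against 13.6 and 52.2 FPKM at 5 and 10 min of glucose and 10.9 and 52.2 FPKM at 5 and 10 min of fructose, a difference of 4.03 ± 0.51 log2 (adjusted p = 0.0015). It fell outside the late starting class because it already stood 1.24 log2 above galactose at the early mean, with its 10 min libraries at 52.2 FPKM and its 5 min libraries near galactose. HXT1, the other low-affinity gene, had 409.7 and 505 FPKM at 60 and 120 min of glucose and 271 and 276 FPKM at 60 and 120 min of fructose, against 43.3 and 334 FPKM at 5 and 10 min of glucose and 15.8 and 239 FPKM at 5 and 10 min of fructose. Its 10 min libraries already stood near the late ones, and the late and early libraries overlapped (adjusted p = 0.13). HXT5 had 16.1 to 29.7 FPKM late, against 9.23 to 18.7 FPKM early. HXT genes are close in sequence, and HXT6 was not analysed here, so reads of such copies may have been assigned to either.

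DAL80, a GATA-type repressor of nitrogen catabolism (chromosome XI, 506898 to 507707, plus strand), had 28.6 and 63.3 FPKM at 60 and 120 min of glucose and 19.5 and 43.6 FPKM at 60 and 120 min of fructose, against 6.59 and 4.96 FPKM at 5 and 10 min of glucose and 10.2 and 5.41 FPKM at 5 and 10 min of fructose, with 5.40 and 10.0 FPKM in galactose. It was higher at 120 than at 60 min in both courses. The difference was 2.27 ± 0.36 log2 (adjusted p = 0.004). GAP1, the general amino acid permease gene (chromosome XI, 515063 to 516871, plus strand), was chosen after its values were seen. It had 1009 and 1277 FPKM at 60 and 120 min of glucose and 974 and 1129 FPKM at 60 and 120 min of fructose, against 432 and 457 FPKM at 5 and 10 min of glucose and 549 and 472 FPKM at 5 and 10 min of fructose, and 453 and 411 FPKM in galactose, a difference of 1.20 ± 0.11 log2 (adjusted p = 0.00031). DUR1,2, urea amidolyase, listed as DUR12, had 27.0 to 41.2 FPKM late, against 7.72 to 17.1 FPKM early, and PUT1, proline oxidase, had 35.1 to 70.1 FPKM late, against 17.1 to 29.4 FPKM early. YKR033C, which has no entry in the reference annotation used here, had 37.3 to 110.2 FPKM late, against 7.80 to 19.0 FPKM early. Its systematic name places it next to DAL80, any overlap with DAL80 was not checked, and how reads of such neighbours were shared is not given. The rise of YKR033C may therefore not be separate from that of DAL80. AHP1, a peroxiredoxin gene, had 5343 and 6217 FPKM at 60 and 120 min of glucose and 5448 and 5974 FPKM at 60 and 120 min of fructose, against 1727 and 2596 FPKM at 5 and 10 min of glucose and 2296 and 3575 FPKM at 5 and 10 min of fructose. ARI1, an aldehyde reductase gene that rose early and rose again, had 176 and 193 FPKM at 60 and 120 min of glucose and 140.0 and 142 FPKM at 60 and 120 min of fructose, against 24.9 and 75.4 FPKM at 5 and 10 min of glucose and 23.9 and 69.7 FPKM at 5 and 10 min of fructose, with 5.64 and 5.78 FPKM in galactose.

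**Figure D3:**
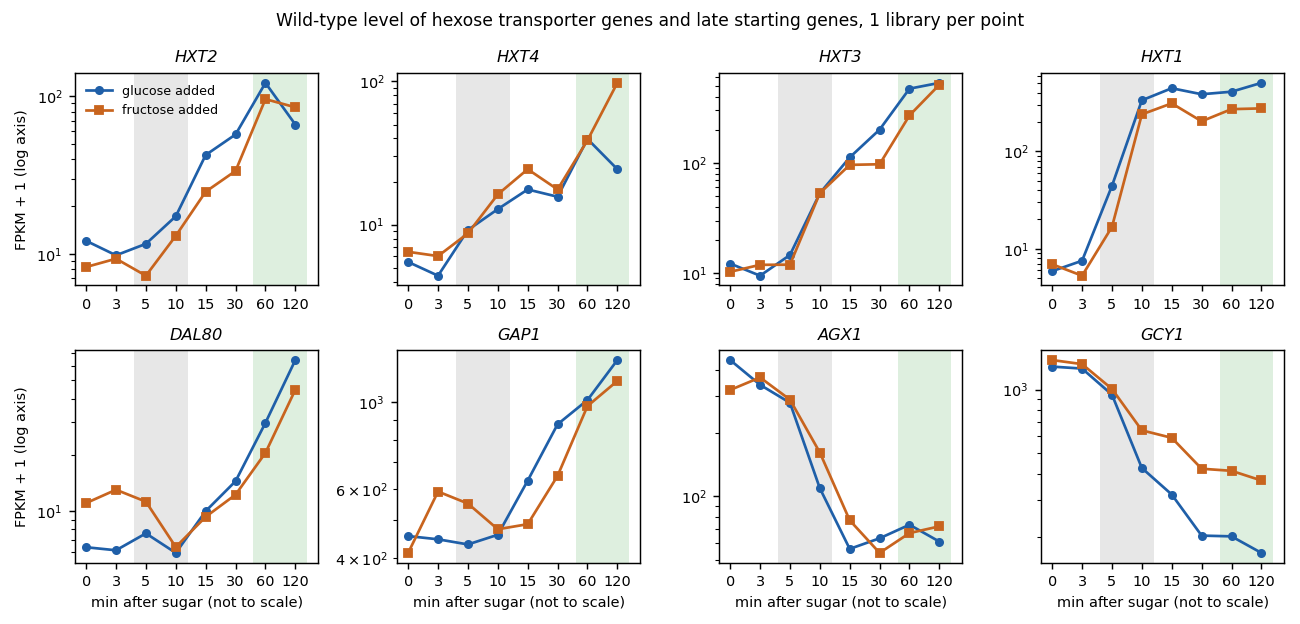
Level of 4 hexose transporter genes (top row), 2 late starting rises (DAL80 and GAP1) and 2 late starting falls (AGX1 and GCY1) in wild-type libraries over time, as FPKM + 1 on a log axis, with 1 library per point. Grey bands mark the early times and green bands the late ones; HXT1 had reached 334 FPKM at 10 min of glucose, whereas HXT2 was at 16.3 FPKM.

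Of the 10 late starting rises with a window, 5 held the letters GATAAG, to which Gln3, Gat1 and Dal80 can bind, against 22.7% of all windows. The letters CGGANNA, to which Rgt1 can bind, were in 7, against 42.1%. They were also in 53.3% of windows of undone rises, 52.8% of undone falls and 59.3% of partly undone falls. Of the other motifs, the Mig1 core and STRE were in 6 of the 10 windows each, against 23.2% and 34.4% of all windows. GATAAG was added after the values were seen. In the nitrogen list 17 of 25 windows held it. With so few genes these counts only describe the windows. The sites below are from genes described above, printed in the same way, and are matches of letters only. Only the labelled match is in capitals, and the first DAL80 stretch holds a further GATA match in lower case.
DAL80 site for GATA factors, chrXI:506599-506622, plus strand, 284 bases before the start codon: agtttccacCTTATCacttatcac
DAL80 site for GATA factors, chrXI:506662-506685, plus strand, 221 bases before the start codon: gatcctgggCTTATCtcgctgcat
GAP1 site for GATA factors, chrXI:514711-514734, plus strand, 337 bases before the start codon: ttggtaactGATAAGattgttaaa
HXT2 Rgt1 letters, chrXIII:287640-287664, plus strand, 423 bases before the start codon: ttatgaatcCGGAGAAaagcggggt
HXT3 Rgt1 letters, chrIV:1165046-1165070, minus strand, 394 bases before the start codon: caataaacaCGGAATAtctcgttcc

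The 6 late starting falls were AGX1, GCY1, YHR033W, GPG1, ODC1 and FIT3. AGX1, an aminotransferase gene of glycine synthesis, had 72.3 and 59.9 FPKM at 60 and 120 min of glucose and 65.8 and 71.0 FPKM at 60 and 120 min of fructose, against 278 and 108 FPKM at 5 and 10 min of glucose and 288 and 161 FPKM at 5 and 10 min of fructose, with 445 and 320.3 FPKM in galactose. Its difference was -1.51 ± 0.29 log2 (adjusted p = 0.0083). GCY1, a glycerol dehydrogenase gene of the galactose regulon, had 200.3 and 167 FPKM at 60 and 120 min of glucose and 411 and 369.7 FPKM at 60 and 120 min of fructose, against 946 and 424 FPKM at 5 and 10 min of glucose and 1007 and 640.3 FPKM at 5 and 10 min of fructose, with 1286 and 1382 FPKM in galactose. FIT3, a cell wall protein of siderophore iron uptake, had 58.8 to 78.8 FPKM late, against 134 to 163 FPKM early. YHR033W had 38.3 to 48.8 FPKM late, against 78.6 to 145 FPKM early, and GPG1, linked to the glucose receptor Gpr1, had 28.0 to 52.1 FPKM late, against 61.6 to 113 FPKM early. These falls were under way at 10 min, when the class median was -1.36 log2 from galactose with glucose and -0.98 with fructose, and the mean of 5 and 10 min kept them within 2-fold. The count was 6, against 3 under equal FPKM sums, 2 and 1 without the fructose-course or glucose-course galactose library, and 3 without either 5 min library.

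The times 3, 15 and 30 min did not enter the classes, whereas the medians at 5, 10, 60 and 120 min come from the libraries that chose the genes and only describe that choice. The median undone rise stood 0.85 log2 above galactose at 3 min of glucose, 1.86 at 5 min, 1.90 at 10 min, 1.29 at 15 min, 1.17 at 30 min, 0.68 at 60 min and 0.27 at 120 min. With fructose the medians were 0.59, 1.45, 1.5, 1.11, 1.14, 0.71 and 0.18 log2 at the same times. Of the times that did not choose the genes, 15 and 30 min had similar medians in both courses. The steps from 10 to 15 min and from 30 to 60 min each use libraries that chose the genes. They describe the choice and do not time the return. The median undone fall stood at -0.58, -1.80, -2.04, -1.16, -1.10, -0.50 and -0.29 log2 at these times of glucose, and at -0.75, -1.69, -1.84, -1.12, -1.26, -0.79 and -0.30 log2 of fructose. The median late starting rise was 0.04 log2 above galactose at 10 min of glucose, 0.64 at 15 min, 1.17 at 30 min, 1.92 at 60 min and 2.03 at 120 min. With fructose it was 0.26, 0.77, 0.90, 1.15 and 1.74 log2 at these times. At 3 min the median of this class was -0.05 log2 with glucose and 0.17 with fructose. Not every member was near galactose before the late times. At 3 min 9 of the 11 genes were within 2-fold of it with glucose and 8 with fructose. At 10 min these counts were 8 and 9.

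**Figure D4:**
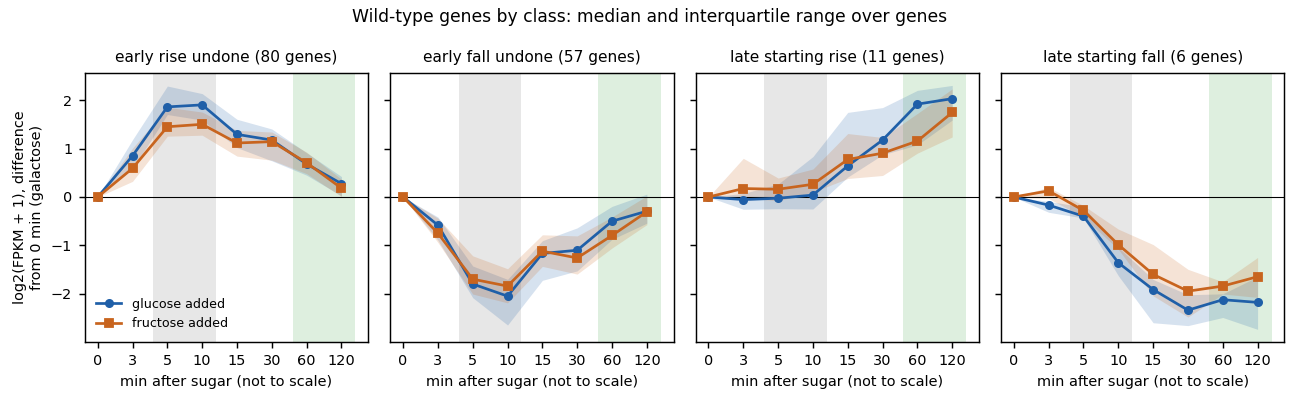
Median over the genes of each class (lines) and interquartile range (shading) of the difference from the 0 min library of the same course, log2(FPKM + 1), at each time of the glucose and fructose courses in wild type; grey bands mark the early times and green bands the late ones. Undone rises peaked at 1.90 log2 at 10 min of glucose and stood at 0.27 log2 at 120 min.

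Because the classes reuse the early libraries, the 2 courses were also read against each other, since they share no library. Genes at least 2-fold above galactose at both 5 and 10 min of glucose numbered 332. In the fructose course their median late minus early difference was -0.61 log2, 317 of the 332 were below 0 and 51 were at least 2-fold lower late. Over all tested genes the median in the fructose course was 0.0, with 49.9% below 0, 1.76% at least 2-fold lower and 2.43% at least 2-fold higher. The 253 genes at least 2-fold below galactose early with glucose had a median of 0.70 log2 in the fructose course, with 207 above 0 and 83 at least 2-fold higher. Read the other way, 215 early rises with fructose had a median of -1.03 log2 in the glucose course, with 183 below 0 and 112 at least 2-fold lower, and 229 early falls had a median of 0.86 log2, with 194 above 0 and 103 at least 2-fold higher. Over all tested genes the median in the glucose course was -0.01, with 51.3% below 0, 3.85% at least 2-fold lower and 3.47% at least 2-fold higher.

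Whether the return differed between the sugars was tested as the difference between the courses. It was taken as fructose late minus early less glucose late minus early. It was called in 3 genes (0.0484%), and 183 genes had an unadjusted p under 0.05 (limma). The 3 genes, YER078W-A, YGL041C-B and YOL083C-A, are short or unmatched and are listed at 0 in all 4 fructose libraries compared. With 2 libraries per sugar and phase, this does not show that the sugars act alike. The undone rises had class medians of -1.01 log2 late minus early for fructose and -1.41 for glucose. The undone falls had medians of 1.13 log2 for fructose and 1.46 for glucose. Changes of 2-fold were also more common with glucose over all tested genes. There 3.85% were at least 2-fold lower late and 3.47% higher, against 1.76% and 2.43% with fructose. The larger glucose medians are therefore not shown to be particular to these classes.

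In tps1 the median gene of the undone classes differed little between the same times. The calls that made the classes used wild-type libraries alone. The tps1 libraries entered only the filter on low values, a mean over all 32 libraries. The median of the 80 undone rises differed by -1.19 log2 between late and early in wild type and by -0.04 in tps1. Over all tested genes the tps1 median was 0.0056 log2. Early in tps1, none of these 80 genes stood 2-fold above the tps1 galactose level and 5 stood 2-fold below it, while over all tested genes 68 stood 2-fold above. The median undone fall differed by 1.33 log2 in wild type and by 0.06 in tps1, where 15 of the 57 genes stood 2-fold below galactose early, against 243 of all 6203 tested genes. For late starting rises the medians were 1.44 and 0.49 log2, and for late starting falls -1.24 and 0.34 log2, in wild type and in tps1. The strain difference in late minus early was called higher in wild type for 173 genes (2.79%) and lower for 250 (4.03%). It was called lower for 51 of the 80 undone rises, and higher for 38 of the 57 undone falls and 24 of the 30 partly undone falls. These counts use the wild-type difference that chose the genes, so they describe the classes and support nothing further. Under equal FPKM sums the strain calls split into 477 higher and 103 lower, with the median of all genes at 0.28 log2, so a strain difference of that size or less has no fixed direction.

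Named genes of the classes differed in how far tps1 went, and since most were named for their wild-type difference their strain differences are given as a description. In tps1, MTH1 had 50.3 and 64.9 FPKM at 60 and 120 min of glucose and 45.4 and 45.9 FPKM of fructose, against 71.7 and 59.9 FPKM at 5 and 10 min of glucose and 46.4 and 44.1 FPKM of fructose. Its late minus early difference was 2.88 log2 in wild type and -0.09 in tps1, and the strain difference was 2.97 ± 0.30 log2 (SE). In tps1, TPO2 had 9.12 and 18.2 FPKM at 60 and 120 min of glucose and 8.27 and 4.58 FPKM of fructose, against 3.72 and 4.14 FPKM at 5 and 10 min of glucose and 4.33 and 3.99 FPKM of fructose, with a strain difference of -3.72 ± 0.37 log2. HXT3 in tps1 had 18.3 and 31.8 FPKM at 60 and 120 min of glucose and 12.9 and 9.31 FPKM of fructose, against 10.5 and 11.8 FPKM at 5 and 10 min of glucose and 13.4 and 11.5 FPKM of fructose, with a strain difference of 3.59 ± 0.65 log2. GAP1 differed between late and early by 1.20 log2 in wild type and -1.13 in tps1. NSR1 differed by -1.39 log2 in wild type and -0.78 in tps1, and HXT2 by 2.94 log2 in wild type and 1.09 in tps1. The strain difference was not called in these 2 (adjusted p = 0.27 and 0.069).

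**Figure D5:**
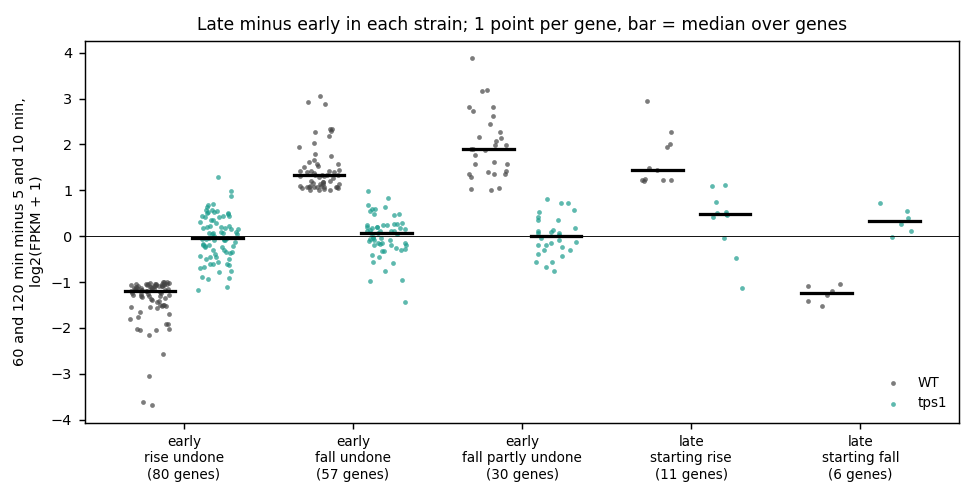
Late minus early difference, log2(FPKM + 1), in wild type (WT, left of each pair) and in tps1 (right) for the genes of 5 classes; each point is 1 gene and the bar is the median over genes. The classes were chosen on the wild-type values; the median of the 80 undone rises was -1.19 in wild type and -0.04 in tps1.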

How the data were processed

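Poly-A RNA was sequenced per the labels' protocols, with hot acidic phenol extraction and stranded libraries. The submitters' processing notes name CASAVA 1.4, TopHat2, Cuffnorm and the build sacCer3. The authors deposited FPKM values for 6717 genes in 32 columns, all matched to the labels. The scaling by Cuffnorm and the use of strand in counting are not given in the sources used here. Of the gene IDs, 6025 matched the RefSeq R64 annotation and 692 did not. An entry without an ID (at most 0.000567% of FPKM) was left out.

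The steps between low FPKM values were read from genes of 900 bp or longer. The depth estimate that used these steps took in genes from 400 bp upward. Of 1737 low values, 92.6% lay within 0.1 of a whole fragment, and the fit was made on these same values. Tests used log2(FPKM + 1) for 6203 genes, those whose mean over the 32 libraries reached 1 FPKM. The 10 wild-type libraries at 0, 5, 10, 60 and 120 min were fitted in R 4.3.3 with limma 3.58.1. The prior variance followed a trend, and p-values were adjusted by Benjamini-Hochberg. Sugar and strain differences were fitted in 8 and 16 libraries. The tests were checked on simulated data. Motifs were searched in 500 bases before start codons. Alternatives changed pseudocount, filter, scaling, times and libraries.

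The members, lists and tests were chosen with earlier results of these data known. Named genes were TPS1, the 5 genes with the largest late minus early difference in each of 4 classes (undone rises and falls, late starting rises and falls) among those whose late and early libraries did not overlap, up to 2 called genes per list, and a fixed set from HXT1 to MTH1, 51 in all. An item that the rule names is not reported here. Genes with values outside that rule (DLD3, GAP1, GLC3, GPH1, GPP1, JEN1, MIG1, PUT1, TOD6) were chosen after their values were seen.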

Additional observations from a re-analysis of the deposited data

Results flagged for a closer look

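In 3 groups of 4 libraries 1 value lay far from the others, of 102 groups looked at, and chance alone marks about 1 in 20. MTH1 had 8.46 FPKM at 10 min of fructose, against 4.14 to 4.55 FPKM in the other early libraries. RGI1 had 14.3 FPKM at 60 min of fructose, against 26.0 to 26.6 FPKM in the other late libraries. RRN11 had 5.04 FPKM at 120 min of fructose, against 8.36 to 8.93 FPKM in the other late libraries. Each gene kept its late against early call without that library, and MTH1 and RGI1 lost it in 2 and RRN11 in 5 of the alternatives run.

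The late minus early difference differed between wild type and tps1 in 32 of the 51 named genes, by limma's test of that difference over all genes. Many of these genes were named for their wild-type difference, so their number describes the choice. The values that follow are the wild type minus tps1 difference in log2, given as a description. Among rises undone or partly undone they were BSC1 (-4.10), PRM7 (-4.32), YOR338W (-3.58), YRO2 (-3.45), DBP2 (-1.59), RRN11 (-1.79), GNP1 (-1.16), TPO2 (-3.72) and FMP48 (-4.51). Among falls undone or partly undone they were TSL1 (2.74), MTH1 (2.97), GIS1 (1.74), TDA1 (2.04), GAL2 (2.15), MAL11 (2.20), MAL31 (1.74), HXK1 (3.38), HXK2 (1.72), GAC1 (1.35), RGI1 (3.54), TMA10 (3.42) and SUC2 (1.32). Among late starting falls they were AGX1 (-1.91), GCY1 (-1.69), YHR033W (-1.40), GPG1 (-1.73) and FIT3 (-1.78). DAL80, a late starting rise, was at 1.51. Outside these classes they were HXT3 (3.59), ARI1 (1.62), GAL1 (-1.48) and RPL3 (-1.25).

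RPL3 stands apart among these because the wild-type libraries moved little. Its late minus early difference was 0.13 log2 in wild type and 1.39 in tps1. The library-wide shift of the strain difference under equal FPKM sums was 0.28 log2 at the median gene.

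The difference between the courses was called in 3 genes, all short or unmatched and listed at 0 in every fructose library compared. It was -4.38 log2 for YER078W-A, 3.06 for YGL041C-B and -5.63 for YOL083C-A. YER078W-A had 24.3 and 16.1 FPKM at 60 and 120 min of glucose and 0 at 5 and 10 min. YOL083C-A had 41.9 and 56.0 FPKM late and 0 early. YGL041C-B was at 0 late and at 7.64 and 7.02 FPKM at 5 and 10 min of glucose.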

How the results depend on the processing

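The classes rest on 1 library per sugar and time, so culture to culture variation was not measured, and counts of undone and late starting genes move with the calls. Depth leaves genes of a few FPKM imprecise. The direction of the late minus early difference held in every alternative run except for 5 of the 51 named genes. Each of the 38 called named genes lost its call in at least 1 alternative, since the fructose course alone gave no calls. Of the uncalled named genes, 7 kept both their direction and their side of the threshold throughout. The 5 that changed direction did so without gaining a call. HXT1 gained a call in 1 alternative (limma, lowest adjusted p = 0.049). STR3 lost its call in 16 of 25 alternatives and was at -0.03 log2 with 3 and 15 min as early.

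With a pseudocount of 5, 72 genes were higher late than early (112 in the report), 35 early falls were undone (57) and 7 late starting rises were counted (11). With no filter on low values there were 7 late starting rises, and with equal FPKM sums 3 late starting falls (6). The sugar difference was called in 1 gene with a mean of at least 10 FPKM, in 1 without overlapping genes and in 0 without genes under 300 bp or unmatched. The filter on overlapping genes and the list counts under each scaling were chosen after seeing the data.

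With 3 to 15 min as early and 30 to 120 min as late, 41 genes were called late against early (18 higher, 23 lower), 303 early against galactose, 11 early rises and 5 early falls were undone, and 3 rises started late. With 3 and 15 min as early the calls were 22 (11 higher, 11 lower), 18 late and 56 early against galactose, 3 rises and 2 falls undone, and 2 rises and 0 falls late starting. With the glucose course only they were 5 (3 higher, 2 lower), 5 late and 22 early against galactose, 1 rise and 2 falls undone, and 1 rise and 1 fall late starting. With the fructose course only they were 0 (0 higher, 0 lower), 6 late and 10 early against galactose, and 0 in each class. In that course 867 genes had an unadjusted p under 0.05 between late and early, and 1412 in the glucose course (limma; 4 libraries and 1 of galactose).

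Leaving out each library in turn gave 166 to 251 calls late against early (88 to 122 higher, 78 to 129 lower), 22 to 155 late against galactose and 404 to 655 early against galactose. Undone rises ranged from 59 to 104, undone falls from 40 to 65, late starting rises from 2 to 12 and late starting falls from 1 to 7. The strain difference was called in 352 to 493 genes and the sugar difference in 0 to 3. Late against galactose fell to 23 and 22 calls without the fructose-course and the glucose-course galactose library. Early against galactose had 404 calls without the glucose-course galactose library. With 1 galactose library left, it is assumed to vary like the other groups. The strain difference was called in 580 genes under equal FPKM sums and 423 in the report.

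Sign changes were seen in small, uncalled late minus early differences. HSP26 was at -0.12 log2 with 3 to 15 min as early and at -0.0849 without 120 min of fructose, and without single libraries it ran up to 0.39. CTT1 was at -0.091 with 3 and 15 min as early. PCK1 was at -0.084 with glucose only and -0.062 without 120 min of fructose. HSP12 was at 0.22 with glucose only and ran from -0.31 to 0.089 without single libraries. DSF1 was at 0.12 with glucose only and ran from -0.20 without 10 min of fructose to 0.074 without 5 min of fructose. No paired analysis by replicate number was possible because the labels give none. The labels name the course, and with the sugar course as a term 212 genes were called late against early (109 higher, 103 lower), 77 rises and 57 falls were undone, and 9 rises and 8 falls started late. The cause of these changes was not tested.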
